A study of Mus musculus with 2 samples.

Results

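The collagen genes were examined in mRNA-seq values of the tunica muscularis (the smooth muscle coat of the gut) taken from mouse jejunum. Members were all gene symbols that match Col, a number, a and a number in full, which gave 44 of the 18159 symbols in the table. They comprised 11 fibrillar collagens, 6 basement-membrane collagens of type IV and 27 other collagens. All 44 were above 0 FPKM (sequenced fragments per length of transcript, corrected for how many fragments each library mapped) in at least one library, 42 were above 0 in both, and 36 reached 1 FPKM in at least one.

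*Dnmt1*-WT and *Dnmt1*-KO mice were compared at an age of 15 days, with 1 library for each genotype on a C57BL/6 background. *Dnmt1* encodes the maintenance DNA methyltransferase. The strain label of both samples names smMHC Cre-eGFP, a transgene in which the promoter of *Myh11*, a smooth muscle myosin gene, drives Cre recombinase and eGFP, together with floxed *Dnmt1* (Dnmt1lox/lox). In *Dnmt1*-KO mice the deletion is thus directed to cells that have expressed the *Myh11* promoter and not to the other cells of the wall. Behind each library were 4 mice, 2 male and 2 female, and how their RNA was combined is not given in the sources used here. The free-text description of both samples names the knockout, while the genotype label and title separate them and were followed. By the study's text the *Dnmt1*-WT mice carry the Cre-eGFP transgene too, while *Dnmt1*-KO mice are those with Cre, both loxP sites and the deleted cassette. The strain label therefore does not separate the genotypes. *Dnmt1* itself was at 11.58 FPKM in *Dnmt1*-WT against 7.58 in *Dnmt1*-KO, a ratio of 0.655. With 1 library per genotype there is no replicate check, no test was made and the number of reads behind a value is unknown. Every ratio below is *Dnmt1*-KO to *Dnmt1*-WT of the deposited FPKM. Shares of all genes are also of the deposited FPKM and were not recomputed where members or lists were rescaled. Fewer cells of a type and less RNA per cell cannot be told apart in these tissue libraries.

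Collagens are secreted proteins built from chains that wind around each other into a triple helix rich in glycine. Fibrillar collagens pack into the tension-bearing fibrils of connective tissue, whereas type IV forms the sheet-like network of basement membranes, which surround each smooth muscle cell. The remaining types decorate fibrils, link them to cells or form smaller networks. In the gut wall fibroblasts and smooth muscle cells are both known to make collagen.

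Collagen mRNA was higher in the *Dnmt1*-KO library, mainly through the type I and type III chains. The FPKM of all 44 genes summed to 4443 in *Dnmt1*-WT and 6603 in *Dnmt1*-KO, a ratio of 1.49, whereas the sum over all genes of the table had a ratio of 1.07. *Col1a1*, *Col1a2* and *Col3a1* together accounted for 71.9% of that difference, and their own sum went from 2440 to 3993 FPKM. Their share of all collagen FPKM was 54.9% in *Dnmt1*-WT and 60.5% in *Dnmt1*-KO. By gene, *Col1a1* accounted for 37.8% of the difference (15.8% of the *Dnmt1*-WT sum), *Col3a1* for 18.7% (25.8%) and *Col1a2* for 15.4% (13.3%). Without these genes the collagen sum still differed, from 2003 to 2610 FPKM, a ratio of 1.30. Collagens made up 1.03% of all FPKM in *Dnmt1*-WT against 1.43% in *Dnmt1*-KO.

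**Figure D1:**
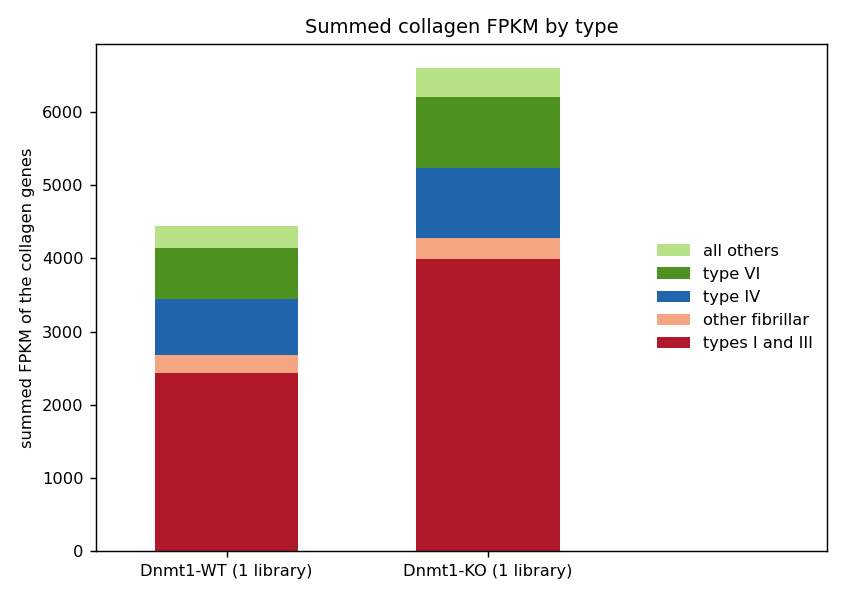
Summed FPKM of the collagen genes in the *Dnmt1*-WT and *Dnmt1*-KO libraries (1 library each), stacked by collagen type on an axis that starts at 0. The total goes from 4443 to 6603 FPKM, and the segment of types I and III (*Col1a1*, *Col1a2* and *Col3a1*) from 2440 to 3993.

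Counted by gene, most members had a ratio above 1 and few were past 2-fold. Of the 42 members above 0 in both libraries, 29 (69.0%) had a ratio above 1, and 13 below 1, compared with 50.3% and 49.1% of all genes above 0 in both. The count above 1 was 25 when scaled to the FPKM sum and 30 under the other scalings. Centred on transcript GC content it was 27, and centred on transcript length 31. A ratio of 2 or more was found for 4 members (9.52%), against 11.8% of all genes, and a ratio of 0.5 or less for 2 members (4.76%), against 4.98%. Past 2-fold the collagens thus had shares near those of all genes. With FPKM + 1 the counts were 2 and 1, since *Col6a6* (1.71), *Col10a1* (1.13) and *Col24a1* (0.653) then lay within 2-fold. At a fold of 1.5, 14 members (33.3%) were higher and 6 (14.3%) lower, against 19.7% and 12.6% of all genes. The median log2 ratio of FPKM + 0.1 over the 44 members was 0.29, and over all genes above 0 in at least one library it was 0.02.

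The same counts were also taken by level, and a difference between levels was not tested. Among the 22 members with a mean of 10 FPKM or more, 16 (72.7%) had a ratio above 1 and 6 below 1, compared with 47.1% and 52.8% of all genes at that level. In this group 8 (36.4%) were at least 1.5-fold higher, and 2 at least 1.5-fold lower, where 9.87% and 9.27% of all such genes were. At least doubled was 1 and at most halved 0, where 4.14% and 2.54% were; *Col23a1* was at most halved, at 0.486, when scaled to the FPKM sum and at 0.487 when centred on GC content. The 22 members with a mean under 10 FPKM included 13 of 20 (65.0%) with a ratio above 1 and 7 below 1, compared with 52.5% and 46.6% of all genes under 10 FPKM. At least doubled were 3 and at most halved 2, against 16.9% and 6.64%, and at a fold of 1.5 there were 6 higher and 4 lower, against 26.3% and 14.9%. Most of the large ratios came from these weakly expressed members.

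**Figure D2:**
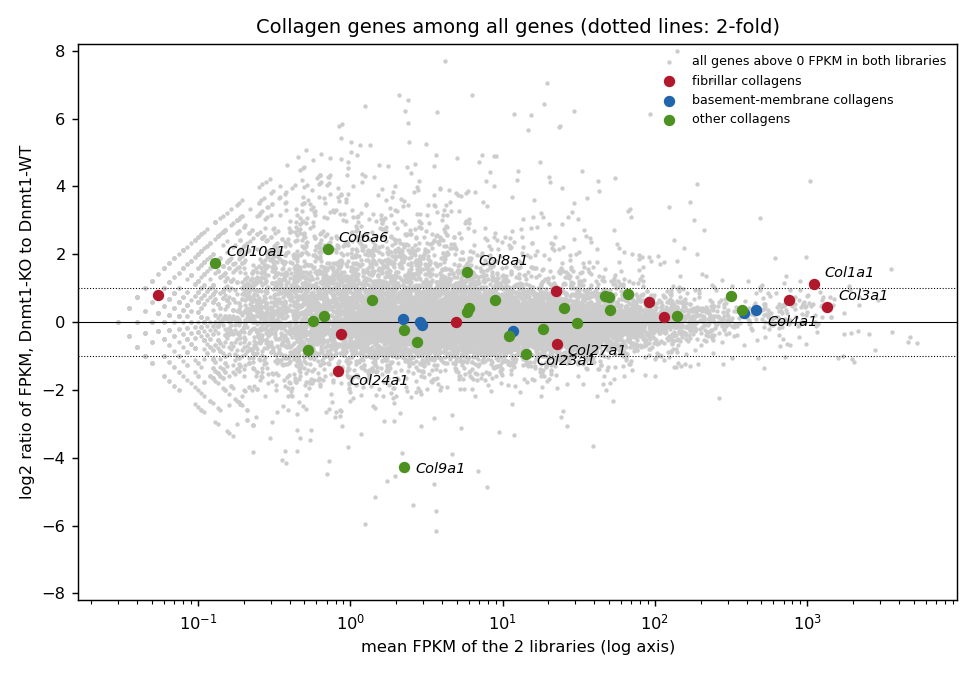
Each point is a gene above 0 FPKM in both libraries, with its mean FPKM on a log axis and its log2 ratio of *Dnmt1*-KO to *Dnmt1*-WT; collagens are coloured by family and dotted lines mark 2-fold. The most abundant collagens lie above 0 and within 2-fold of it except *Col1a1*, while the widest ratios, those of *Col9a1*, *Col6a6* and *Col10a1*, belong to genes of low level.

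Promoter sequence is shown here for 5 members because DNMT1 acts on cytosines followed by guanine (CpG), and because these genes, chosen with their values known, differ in CpG content and in ratio. *Col3a1* was the most abundant collagen, *Col5a1* is a fibrillar chain with a CpG-rich start, *Col8a1* was the most expressed of the at least doubled members after *Col1a1*, and *Col23a1* and *Col9a1* were lower in *Dnmt1*-KO. Each line gives the 150 bases just before the RefSeq start site in GRCm38.p6, 5′ to 3′ on the strand of the gene, with each CG in capitals. The positions are chr1:45311388-45311537 (plus strand) for *Col3a1*, chr2:27886275-27886424 (plus) for *Col5a1*, chr16:57754738-57754887 (minus) for *Col8a1*, chr11:51289770-51289919 (plus) for *Col23a1* and chr1:24177460-24177609 (plus) for *Col9a1*, the latter for the first of its RefSeq starts.
Col3a1: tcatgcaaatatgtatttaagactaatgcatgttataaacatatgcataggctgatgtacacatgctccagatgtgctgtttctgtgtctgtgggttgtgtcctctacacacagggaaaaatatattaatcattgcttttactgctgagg
Col5a1: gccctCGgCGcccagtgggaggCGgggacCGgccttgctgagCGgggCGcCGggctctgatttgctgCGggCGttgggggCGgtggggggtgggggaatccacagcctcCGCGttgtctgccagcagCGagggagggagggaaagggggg
Col8a1: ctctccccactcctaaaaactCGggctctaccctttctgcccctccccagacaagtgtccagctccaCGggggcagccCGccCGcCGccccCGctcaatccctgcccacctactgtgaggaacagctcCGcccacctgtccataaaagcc
Col23a1: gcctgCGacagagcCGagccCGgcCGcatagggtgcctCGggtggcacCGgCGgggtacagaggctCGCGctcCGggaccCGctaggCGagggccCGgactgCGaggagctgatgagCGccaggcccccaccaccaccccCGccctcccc
Col9a1: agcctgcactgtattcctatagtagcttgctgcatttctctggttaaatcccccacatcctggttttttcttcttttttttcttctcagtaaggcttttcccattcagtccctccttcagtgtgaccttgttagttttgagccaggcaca

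These stretches hold 0 CpG in *Col3a1*, 13 in *Col5a1*, 7 in *Col8a1*, 16 in *Col23a1* and 0 in *Col9a1*. RefSeq windows of 250 bases before to 50 after the start were at hand for 35 members, in 38 windows, with 0 to 37 CpG and a median of 11.5. The median over all 32851 windows, of 27025 genes, was 7, but these include genes not listed in the expression values. Of the listed genes, by the window with most CpG, 10384 were above 7 and 2919 at or below it, against 24 and 11 members. The collagens were therefore not shown to be richer in CpG than the listed genes. *Col1a1*, which at least doubled, had no such window and is missing from these promoter counts. So are *Col2a1*, *Col4a3*, *Col5a2*, *Col9a3*, *Col12a1*, *Col14a1*, *Col22a1* and *Col26a1*. Of these members without a window only *Col12a1* had a ratio below 1, and *Col22a1* had none, being at 0 in *Dnmt1*-WT. Of the 24 members above that median of 7, 15 of the 23 above 0 FPKM in both libraries had a ratio above 1, 2 were at least doubled and 0 at most halved, against 47.2%, 6.77% and 3.83% of all genes with such a window. Of the 11 at or below it, 7 had a ratio above 1, 1 was at least doubled and 2 at most halved, against 61.6%, 31.4% and 9.64%. The GC box GGGCGG, read on both strands, was in 23 of the 38 windows (60.5%) and in 35.7% of all windows, which again include genes not listed. CCAAT was in 34.2% against 37.4%, and TATAAA in 13.2% against 13.6%. A match is no more than these letters, and methylation was not analysed here.

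The fibrillar collagens held the highest levels. *Col3a1* encodes the single chain of type III collagen, which forms fine fibrils in distensible organs. Its level was 1148.06 FPKM in *Dnmt1*-WT against 1552.41 in *Dnmt1*-KO, a ratio of 1.35, and it ranked 30th and 23rd among all genes. *Col1a1*, the alpha 1 chain of type I collagen, went from 700.41 to 1517.78 FPKM, a ratio of 2.17, and from rank 72 to rank 26. This was the only collagen above 10 FPKM that at least doubled, and its ratio was 1.92 when centred on transcript GC content. Centred on transcript length, *Col5a3* and *Col18a1* also passed 2, at 2.15 and 2.03. *Col1a2*, its partner chain, had 591.4 and 923.04 FPKM, a ratio of 1.56.

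Type V collagen nucleates fibrils of type I and controls their width. Its *Col5a1* chain was at 73.1 FPKM in *Dnmt1*-WT against 110.88 in *Dnmt1*-KO, a ratio of 1.52. *Col5a2* differed little, with 109.36 and 121.31 FPKM. *Col5a3*, the rarest of its chains, went from 15.59 to 29.31 FPKM, a ratio of 1.88. All chains of types I, III and V were therefore higher in the *Dnmt1*-KO library.

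The other fibrillar chains were mixed in direction. *Col27a1*, a fibrillar collagen known mainly from cartilage, was lower, at 27.75 FPKM in *Dnmt1*-WT against 17.58 in *Dnmt1*-KO, a ratio of 0.634. *Col24a1* had 1.22 and 0.45 FPKM, a ratio of 0.369, at levels where single values carry little weight. *Col11a1*, a type XI chain, was nearly equal at 4.97 and 4.98 FPKM, and *Col11a2* had 0.98 and 0.77 FPKM. *Col2a1*, the main collagen of cartilage, was close to the lowest value above 0 in the table (0.03 FPKM in either library) at 0.04 and 0.07 FPKM. In all, 8 of the 11 fibrillar genes had a ratio above 1, against 50.3% of all genes. Their median log2 ratio was 0.28, but 0.15 with a pseudocount of 1 and 0.44 with one of 0.01 or among members of at least 1 FPKM, and their sum was 2673 FPKM in *Dnmt1*-WT against 4279 in *Dnmt1*-KO.

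**Figure D3:**
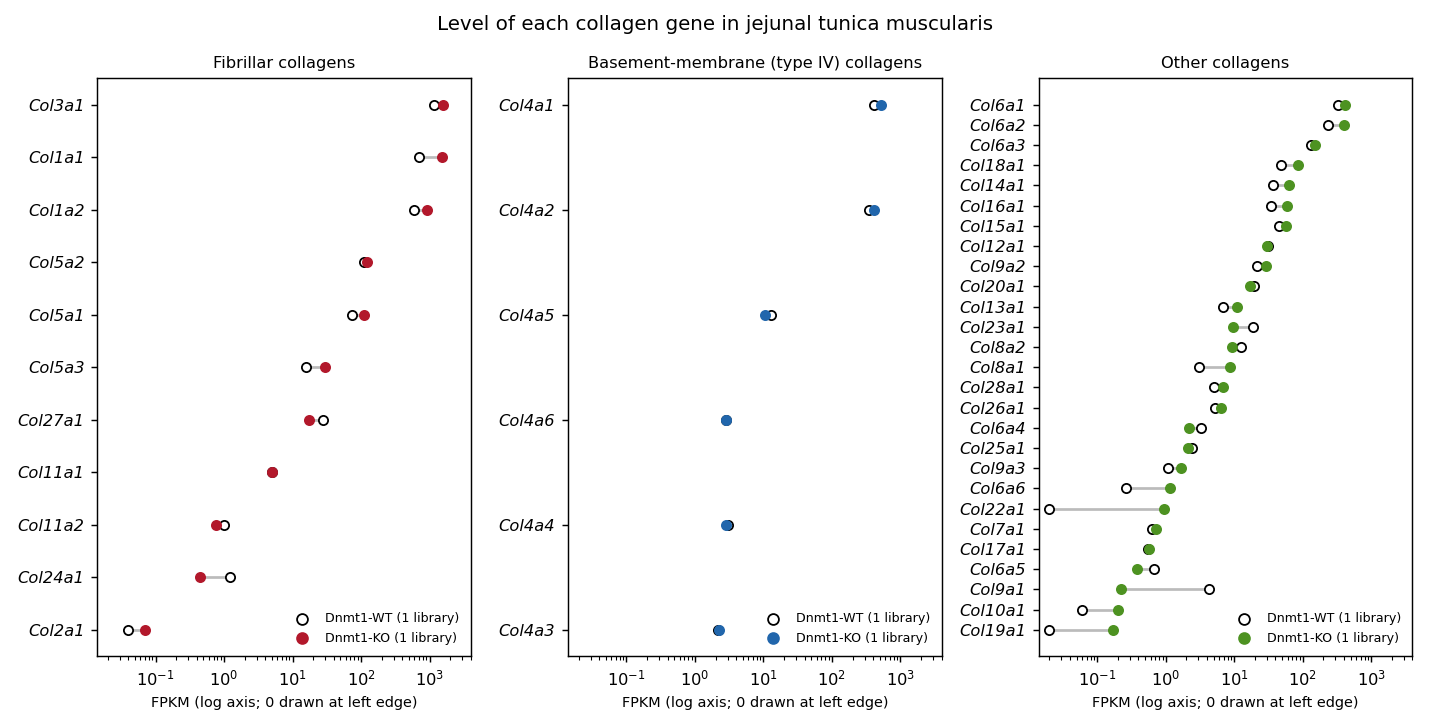
FPKM of each collagen gene on a log axis in *Dnmt1*-WT (open circles) and *Dnmt1*-KO (filled circles), 1 library each, in panels for fibrillar, type IV and other collagens, with a value of 0 drawn near the left edge. *Col1a1* moves from 700.41 to 1517.78 FPKM, the type IV pairs nearly coincide, and *Col9a1* is the widest shift to the left.

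FPKM is scaled to transcript length, so chains were set side by side within a library. The comparison is approximate, since similar chains share fragments to an unknown degree and FPKM is not scaled to GC content. Type I collagen is usually a trimer with more alpha 1 than alpha 2 chains. *Col1a1* was 1.18 times *Col1a2* in *Dnmt1*-WT and 1.64 times in *Dnmt1*-KO. *Col3a1*, on the other hand, was 1.64 times *Col1a1* in *Dnmt1*-WT and 1.02 times in *Dnmt1*-KO, so the order of abundance stayed *Col3a1*, *Col1a1*, *Col1a2* with *Col1a1* close to *Col3a1* in *Dnmt1*-KO. The ratio of *Col5a1* to *Col5a2* was 0.668 in *Dnmt1*-WT and 0.914 in *Dnmt1*-KO.

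The basement-membrane collagens all lay within 1.5-fold. *Col4a1* and *Col4a2* encode the chains of the common type IV trimer found in nearly all basement membranes. *Col4a1* was at 405.96 FPKM in *Dnmt1*-WT against 519 in *Dnmt1*-KO, a ratio of 1.28. *Col4a2* had 345.32 and 418.45 FPKM, a ratio of 1.21. The ratio of *Col4a1* to *Col4a2* was almost the same in both libraries, 1.18 and 1.24.

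The minor type IV chains form trimers of more restricted occurrence, best known from the kidney glomerulus. *Col4a5* and *Col4a6* also make a trimer of smooth muscle basement membranes. *Col4a5* was lower, with 12.78 FPKM in *Dnmt1*-WT against 10.67 in *Dnmt1*-KO, a ratio of 0.835. *Col4a6* had 2.85 and 2.87 FPKM, *Col4a3* 2.14 and 2.27, and *Col4a4* 3.02 and 2.87. Of the 6 genes 4 had a ratio above 1, against 50.3% of all genes, and the median log2 ratio was 0.05. With each library scaled to its FPKM sum the count was 2 of 6 and the median turned to -0.05, and centred on transcript length they were 5 of 6 and 0.26. The share of all genes was not recomputed for these settings. Summed type IV FPKM were 772 and 956, and their share of all collagen FPKM was 17.4% in *Dnmt1*-WT and 14.5% in *Dnmt1*-KO. The share of the fibrillar genes was 60.2% and 64.8%.

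**Figure D4:**
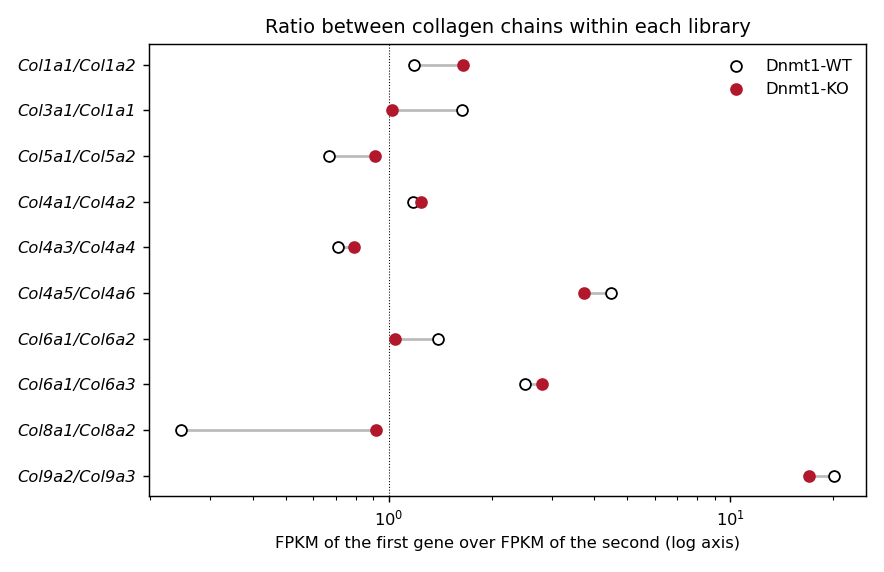
FPKM of one collagen chain over another in *Dnmt1*-WT (open circles) and *Dnmt1*-KO (filled circles), on a log axis with a dotted line at 1. *Col4a1* to *Col4a2* changes little (1.18 and 1.24), while *Col1a1* to *Col1a2* goes from 1.18 to 1.64 and *Col8a1* to *Col8a2* from 0.247 to 0.919.

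Type VI collagen forms beaded filaments that connect cells to the interstitial matrix. *Col6a1* went from 328.65 to 417.75 FPKM, a ratio of 1.27, and *Col6a2* from 236.48 to 399.93 FPKM, a ratio of 1.69. *Col6a3*, the largest of the main chains, differed less, with 130.77 and 148.75 FPKM. The ratio of *Col6a1* to *Col6a2* thereby went from 1.39 in *Dnmt1*-WT to 1.04 in *Dnmt1*-KO. The chains *Col6a4*, *Col6a5* and *Col6a6*, which can take the place of the alpha 3 chain, were weakly expressed and ran in different directions. *Col6a4* was at 3.31 FPKM in *Dnmt1*-WT against 2.19 in *Dnmt1*-KO, *Col6a5* at 0.67 and 0.38, and *Col6a6* at 0.26 and 1.16, a ratio of 4.46, or 1.71 with FPKM + 1.

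Collagens of the FACIT class (fibril-associated collagens with interrupted triple helices) sit on the surface of fibrils. *Col14a1* was at 37.3 FPKM in *Dnmt1*-WT against 62.04 in *Dnmt1*-KO, a ratio of 1.66. *Col16a1* had 34.96 and 59.53 FPKM, a ratio of 1.70. *Col12a1*, the relative of *Col14a1*, had 31.11 and 30.56 FPKM, a ratio of 0.982. *Col20a1* was lower, at 19.56 and 17.02 FPKM.

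Type IX collagen is the FACIT of cartilage, and its genes went apart. *Col9a1* was at 4.3 FPKM in *Dnmt1*-WT against 0.22 in *Dnmt1*-KO, a loss of 94.9% and the lowest ratio of any collagen, 0.051, or 0.230 with FPKM + 1. *Col9a2* was higher, with 21.51 and 28.74 FPKM, and so was *Col9a3*, with 1.07 and 1.69 FPKM. The table lists 1 *Col9a1* transcript variant in *Dnmt1*-WT and 2 in *Dnmt1*-KO. Only the FACIT genes *Col22a1* and *Col19a1* were at 0 in *Dnmt1*-WT and above 0 in *Dnmt1*-KO among the members, where 5.25% of all listed genes were. *Col22a1*, a collagen of the junction between muscle and tendon, was listed at 0.95 FPKM in *Dnmt1*-KO and *Col19a1* at 0.17.

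The multiplexins *Col15a1* and *Col18a1* encode collagens of the basement-membrane zone, the latter the precursor of endostatin. *Col15a1* was at 44.46 FPKM in *Dnmt1*-WT against 56.43 in *Dnmt1*-KO, a ratio of 1.27. *Col18a1* differed more, with 48.02 and 85.11 FPKM, a ratio of 1.77. Counted with type IV, both raise the median log2 ratio of the basement-membrane collagens to 0.18.

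Type VIII collagen forms hexagonal networks and is known from vessel walls and from Descemet's membrane of the cornea. *Col8a1* was at 3.1 FPKM in *Dnmt1*-WT against 8.6 in *Dnmt1*-KO, a ratio of 2.77, while *Col8a2* was lower, at 12.55 and 9.36 FPKM. *Col8a1* was thus 0.247 times *Col8a2* in *Dnmt1*-WT and 0.919 times in *Dnmt1*-KO. *Col10a1*, of the same class and a marker of hypertrophic cartilage, was at 0.06 and 0.2 FPKM.

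Transmembrane collagens span the cell membrane and can be shed from it. *Col23a1* was at 18.62 FPKM in *Dnmt1*-WT against 9.7 in *Dnmt1*-KO, a loss of 47.9%, the largest among members with a mean of 10 FPKM or more. *Col13a1*, found at neuromuscular junctions, had 6.96 and 10.93 FPKM, a ratio of 1.57, and *Col25a1* 2.44 and 2.09 FPKM. *Col17a1*, of the hemidesmosomes of skin, was at 0.56 and 0.57 FPKM. Of the members outside these classes, *Col28a1* had 5.11 and 6.86 FPKM, *Col26a1* 5.23 and 6.45, and *Col7a1*, of anchoring fibrils, 0.63 and 0.71. Across the 27 other collagens, 17 of 25 had a ratio above 1, against 50.3% of all genes, and the median log2 ratio was 0.35, or 0.17 when centred on transcript GC content.

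Several collagen genes are neighbours in the genome, and their values were set side by side with positions from GENCODE M21 (GRCm38). *Col4a1* (chr8:11198423-11312826, minus strand) and *Col4a2* (chr8:11312805-11449287, plus strand) are arranged head to head with starts 21 bases apart, and had ratios of 1.28 and 1.21. *Col4a4* (chr1:82448423-82586849, minus) and *Col4a3* (chr1:82586921-82722059, plus) start 72 bases apart, with 0.950 and 1.06. The starts of *Col4a6* (chrX:141165403-141474076, minus) and *Col4a5* (chrX:141475385-141689234, plus) are 1309 bases apart, with 1.01 and 0.835. The chains of the last pair differed in level, since *Col4a5* was 4.48 times *Col4a6* in *Dnmt1*-WT and 3.72 times in *Dnmt1*-KO. Neighbours in other arrangements follow. *Col3a1* (chr1:45311538-45349706, plus) and *Col5a2* (chr1:45374321-45503282, minus) lie tail to tail with ratios of 1.35 and 1.11. *Col6a2* (chr10:76595762-76623630, minus) and *Col6a1* (chr10:76708792-76726168, minus) had 1.69 and 1.27. *Col6a6* (chr9:105687809-105828160, minus), with 4.46, is next to *Col6a5* (chr9:105856078-105960643, minus), with 0.567, which is followed by *Col6a4* (chr9:105989454-106096783, minus), with 0.662. These neighbours thus ranged from close ratios, as for *Col6a5* and *Col6a4*, to opposite directions, as for the weakly expressed *Col6a6* and *Col6a5*. *Col9a1* (chr1:24177610-24252684, plus), the collagen with the lowest ratio, is separated by 9205 bases from the end of *Col19a1* (chr1:24261890-24587472, minus), 1 of the 2 listed at 0 in *Dnmt1*-WT.

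The table also gives the number of transcript variants found for each gene. Of the 42 members above 0 in both libraries, 31 had as many variants in *Dnmt1*-KO as in *Dnmt1*-WT, 6 had fewer and 5 had more, against 73.9% with as many, 13.6% with fewer and 12.5% with more among all genes. *Col16a1* went from 3 to 5 variants and *Col18a1* from 5 to 4. *Col23a1* went from 2 to 1 and *Col27a1* from 4 to 5. None differed by more than 2.

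Genes that act on collagen were taken as 7 lists with 63 genes, of which 62 were listed. At least doubled were 7 (11.3%) and at most halved 2, against 11.8% and 4.98% of all genes (3 and 1 with FPKM + 1), and 42 (67.7%) were higher in *Dnmt1*-KO, against 50.3% of all genes. The count of higher genes was 37 when scaled to the FPKM sum and 43 under the other scalings. Centred on transcript length it was 39, and centred on GC content 40. Hydroxylation and folding in the endoplasmic reticulum come first. Of 17 such genes 12 were higher, none at least doubled and *Colgalt2*, a collagen galactosyltransferase, was the one at most halved, with 3.46 FPKM in *Dnmt1*-WT against 1.68 in *Dnmt1*-KO, though not with FPKM + 1 or centred on transcript length. *Serpinh1*, the collagen chaperone HSP47 and the most abundant, was at 420.92 and 406.66 FPKM, so its level did not follow that of the collagens.

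For secretion of procollagen, 3 of 7 genes were higher (1 to 4 under the scalings and centrings), none was past 2-fold as deposited, and the most abundant, *Sar1a*, a GTPase of the coat that carries cargo out of the endoplasmic reticulum, was at 70.9 and 69.88 FPKM. Processing of the procollagen ends comes next. Of 8 genes 7 were higher and 3 at least doubled, with a median log2 ratio of 0.72, where 50.3% of all genes were higher and 11.8% at least doubled. Scaled to the FPKM sum, centred on GC content or with FPKM + 1, *Pcolce2* alone was at least doubled. *Pcolce*, which enhances removal of the carboxyl propeptide and was the most abundant, had 116.15 FPKM in *Dnmt1*-WT against 209 in *Dnmt1*-KO. *Adamts2*, which removes the amino propeptide of types I and III, was at 11.56 and 23.51 FPKM. Its relative *Adamts14* had 0.93 and 1.98 FPKM, and *Pcolce2* 0.8 and 3.74, a level at which doubling was more common, since 16.9% of all genes with a mean under 10 FPKM were at least doubled.

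Cross-linking enzymes were higher for 6 of 7 genes and at least doubled for 1, against 50.3% and 11.8% of all genes. *Lox*, lysyl oxidase, which starts covalent cross-links between collagen molecules, went from 7.63 to 34.58 FPKM, a ratio of 4.53 and the only one in the list past 2-fold. *Tgm2*, a transglutaminase, was at 70.53 and 106.66 FPKM and was the most abundant in *Dnmt1*-KO. *Pxdn*, peroxidasin, which cross-links type IV collagen, was the exception, with 82.5 FPKM in *Dnmt1*-WT, the highest of the list there, and 55.11 in *Dnmt1*-KO.

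Collagen receptors summed to less in *Dnmt1*-KO, 567 FPKM in *Dnmt1*-WT against 420 in *Dnmt1*-KO, although 5 of 9 genes were higher and 2 at least doubled, against 50.3% and 11.8% of all genes. *Itgb1*, the beta 1 integrin shared by the collagen-binding integrins, was at 377.35 and 283.37 FPKM. The at least doubled receptors were weakly expressed: *Itga11*, which pairs with it as a receptor of fibrillar collagen on fibroblasts, had 1.34 and 3.4 FPKM, and *Lair1*, a leukocyte receptor, 0.54 and 1.22, and neither was past 2-fold with FPKM + 1. Among collagen-degrading proteases 5 of 6 genes were higher, again against 50.3% of all genes, and none was past 2-fold as deposited. Scaled to the FPKM sum 3 of 6 were higher, a setting for which the share of all genes was not recomputed. *Mmp14*, a membrane-bound collagenase and the most abundant, was at 77.27 and 110.73 FPKM. Fibril-binding proteoglycans were split, 4 higher and 4 lower. *Dcn*, decorin, was the most abundant at 427.74 and 613.54 FPKM, *Bgn*, biglycan, at least doubled from 112.17 to 297.26 FPKM, and *Prelp*, which tethers basement membranes to connective tissue, was at most halved, at 78.54 and 31.31 FPKM.

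**Figure D5:**
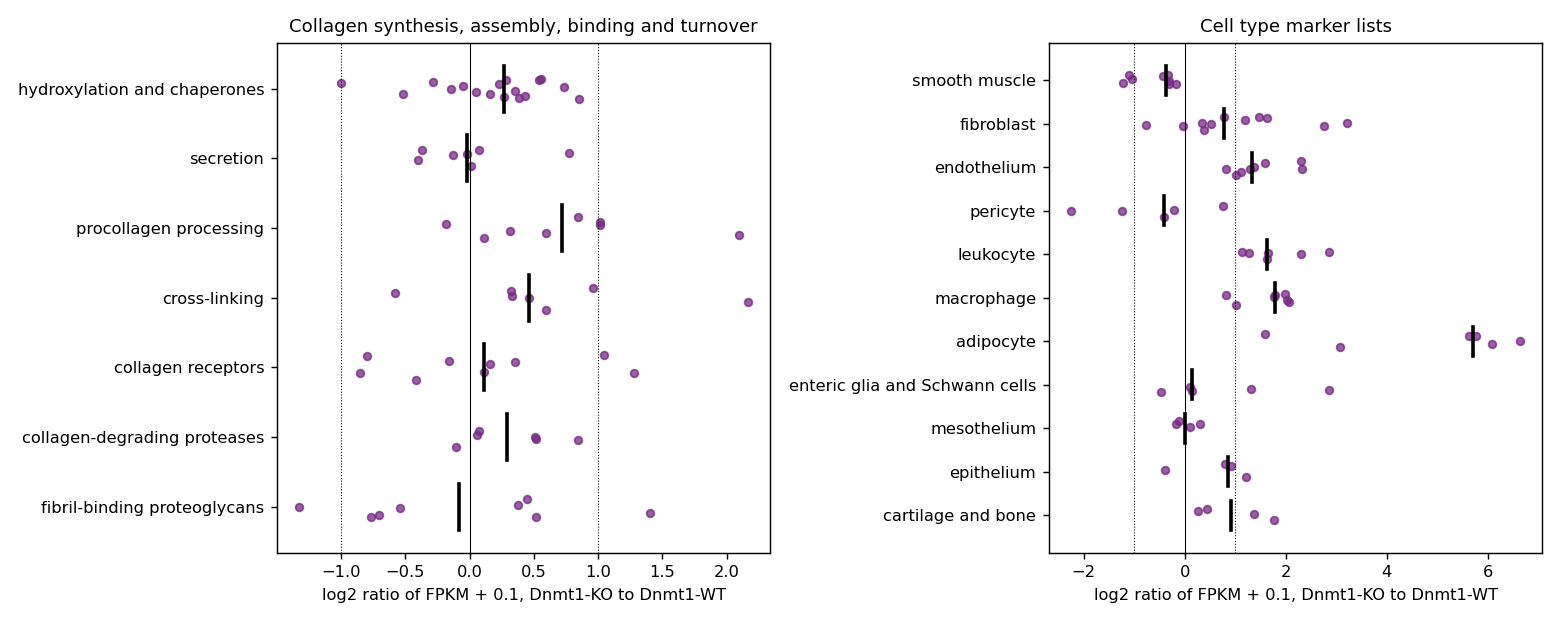
Log2 ratio of FPKM + 0.1, *Dnmt1*-KO to *Dnmt1*-WT, for each gene (points) of the collagen pathway lists (left) and cell type marker lists (right), with list medians as bars and dotted lines at 2-fold. Processing and cross-linking genes lie mostly above 0, with medians of 0.72 and 0.46, and in the right panel all endothelial and macrophage markers lie above 0 and all smooth muscle markers below it.

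Markers of the cells in the wall also differed between the libraries, in both directions, and are given for whole lists, where 50.3% of all genes were higher and 49.1% lower. All 8 smooth muscle markers, among them *Acta2* and *Myh11*, were lower, with a sum of 16754.91 FPKM in *Dnmt1*-WT against 12123.46 in *Dnmt1*-KO. Fibroblast markers other than collagens were higher for 9 of 11, with sums of 1097 and 1518 FPKM, a ratio of 1.38. The list was not uniform, since *Pdgfra* was at 68.95 and 40.72 FPKM and *Dpt* at 229.05 and 224.67, while *Mfap5* was at 5.44 and 51.4 and *Pi16* at 0.77 and 5.78. *Dcn* and *Lum* also stand in the proteoglycan list. All 8 endothelial markers were higher, with a sum of 54.7 and 149 FPKM, including *Pecam1* at 15.76 and 38.84 FPKM; endothelial cells also make types IV, XV and XVIII. Markers of pericytes were lower for 4 of 5 (3 of 5 when centred on transcript length), with a sum of 663 and 242 FPKM. *Rgs5* made up most of the *Dnmt1*-WT sum, at 434.65 and 91.95 FPKM, while *Pdgfrb* was higher, at 8.54 and 14.47.

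Macrophage markers (7 of 7 higher, sums of 134 and 483 FPKM), leukocyte markers (6 of 6, 21.8 and 72.9) and adipocyte markers (6 of 6, 108 and 1166) were higher as well. *Cd3e*, of T cells, and *Lep*, of adipocytes, were among the markers at 0 in *Dnmt1*-WT. Mesothelial markers were 2 higher and 2 lower, with sums of 242 and 239 FPKM. Glial and Schwann cell markers were higher for 4 of 5 (60.5 and 92.2 FPKM) and epithelial markers for 3 of 4 (22.8 and 34.8). Of the cartilage and bone markers 4 of 6 were listed, all of them higher, with sums of 5.23 and 7.98 FPKM. *Bglap* made up 4.85 and 6.65 of these sums, *Sox9* was at 0.33 and 1.01 FPKM, and *Comp* was at 0 in *Dnmt1*-WT. The part that any of these cell types has in the collagen values was not tested.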

How the data were processed

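The authors deposited 1 table with the FPKM of each gene in the *Dnmt1*-WT and *Dnmt1*-KO libraries, the number of transcript variants and their own ratio, which was not used. TruSeq RNA libraries were mapped to GRCm38 (mm10). The submitters' processing notes name TopHat 1.4.1 and Cufflinks 2.0.2. FPKM divides fragments by transcript length and mapped total, so read counts per gene are unknown, counting error cannot be given, and similar chains share it to an unknown degree. The deposited variant counts (unit: other) were read as listed.

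Plain FPKM ratios were taken for genes not at 0 in either library, and 2 or more was called at least doubled 0.5 or less at most halved. List medians used log2 of FPKM + 0.1. With 1 library per genotype no test was made. Every collagen is named, with its values. Of each pathway list the most abundant gene and those past 2-fold with at least 1 FPKM in one library were named by rule; *Pxdn* and the single markers were named after their values were seen. The members and lists were chosen with earlier results of these data known. Older symbols (*Lepre1*, *Glt25d1*, *Emr1* and the like) were matched through RefSeq synonyms. *Gp6*, *Acan* and *Ibsp* were not matched. A leukocyte marker counted in its list is not reported here by itself. Promoters came from RefSeq (GRCm38.p6), gene positions and transcript length from GENCODE M21, in which 17204 of 18159 symbols (94.7%) and all 44 members have a length. Fold counting was tested on simulated data. Python 3.11.15, numpy 2.4.6, pandas 2.3.3 and matplotlib 3.10.9 were used.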

Additional observations from a re-analysis of the deposited data

How the results depend on the processing

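With no replicates and no counting error, a median or sum is called moved here when it shifted by 0.1 or more on the log2 scale, and a count when it shifted by more than 1.5 times. Of 63 values recomputed, 49 kept within these limits, 13 moved and 1 reversed. The reversed value was the type IV median log2 ratio, from 0.046 to -0.051 with each library scaled to its FPKM sum; that scaling also put the median of the other collagens at 0.245 and the ratio of summed collagen FPKM at 1.386. The fold counts of 4 doubled and 2 halved were 2 and 1 with FPKM + 1, and 14 and 6 at a fold of 1.5. The fibrillar median of 0.280 was 0.148 with a pseudocount of 1, 0.435 with one of 0.01 and 0.435 among members of at least 1 FPKM, since 2 of its genes lie lower. The type IV median was 0.179 with *Col15a1* and *Col18a1*, and 0.259 when centred on transcript length in 10 bins. Centring on GC content put the median of the other collagens at 0.168. Both centrings, and recounting the families and lists under the same settings, were chosen after seeing the data. Of the marker lists, smooth muscle markers were lower for 8 of 8 and endothelial and macrophage markers higher for all in each of these. The summed ratio without *Col1a1*, *Col1a2* and *Col3a1* was 1.303. Of the 42 members with a ratio, 35 stayed on the same side of 1 under the scalings, the centrings and FPKM + 1; *Col12a1*, *Col11a1*, *Col4a6*, *Col4a4*, *Col4a3*, *Col7a1* and *Col17a1* did not. *Col1a1* ranged from 1.92 to 2.48, and was at or above 2 in all of these but the GC centring. Collagen transcripts are long (median 5989 bases, against 3453) and rich in GC (55.1%), so both centrings bear on them. No paired analysis was possible because each genotype has 1 library, and leaving out a replicate was not possible for the same reason.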
